A study of Homo sapiens with 4 samples.

Results

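Proteins larger than the diffusion limit of the nuclear pore are carried through it by transport receptors, and 32 genes of this machinery were followed here in Ca9-22 cells, an established line of human gingival squamous cell carcinoma. The rule for the genes uses their names and no measured value, although earlier results of these data were known when they were chosen: 7 importin alpha subtypes (KPNA1 to KPNA7), 11 import receptors of the importin beta family, 7 exportins, and 7 genes of the Ran cycle and transport adaptors. Every gene probe whose transcript belongs to a member was used, 43 of the 34127 gene probes on the array, which gave 32 of the 19550 genes tested. RNA came from 2 control cultures (the labels give negative control cells, genotype control) and 2 KPNA4 knockdown cultures, described as biological replicates and harvested 3 days after transfection. Each RNA was labelled with 1 dye and hybridized to an Agilent whole human genome array. The labels name the silencing reagent as siRNA, whereas the study describes the Ca9-22 cells of its expression profile as carrying shRNA against KPNA4, and these sources were not reconciled here. The question was whether other transport receptors are higher at the mRNA level when KPNA4 is depleted.

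In the classical import route, an importin alpha binds the nuclear localization signal of a cargo and is itself bound by importin beta (KPNB1), which docks at the pore. In the nucleus the GTP-bound form of the small GTPase RAN releases the cargo, and the exportin CSE1L returns importin alpha to the cytoplasm. Exportins bind their cargo together with RAN-GTP, and the hydrolysis of GTP in the cytoplasm lets it go. The importin alpha subtypes fall into subfamilies with different cargo preferences: KPNA3 with KPNA4, KPNA1 with KPNA5 and KPNA6, and KPNA2 with KPNA7. KPNA4 and KPNA3 are known carriers of NF-κB subunits.

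The hairpins that the study designed against KPNA4 are shown because they are the stretches of the transcript that its shRNA targets, although the labels of these arrays name siRNA. Each is the forward oligo of 58 bases, 5′ to 3′, with the 21-base target from position 5 to 25 in capitals, followed by the loop and the antisense arm.
shKPNA4_#1-F: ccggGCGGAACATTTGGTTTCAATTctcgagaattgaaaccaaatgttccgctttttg
shKPNA4_#2-F: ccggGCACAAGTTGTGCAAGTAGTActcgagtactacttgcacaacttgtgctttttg

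All values below are log2 of the processed signal relative to the 75th percentile of the same array, so that 0 is the signal at that percentile, and differences are KPNA4 knockdown minus control. Adjusted p values are from limma with Benjamini-Hochberg adjustment over all 19550 genes, and a gene was called where this was under 0.05. The scaling matters for small differences: the 75th percentile was 1466 and 1381 in the controls against 1938 and 2096 after knockdown, and the median difference over all genes tested was -0.10 with scaling, -0.05 after quantile normalization and 0.40 without scaling, a shift of 0.50. All 4 arrays lay on 1 slide, and Pearson correlations were 0.998 within groups and 0.979 between them. All 9 squamous marker genes were well above background on all 4 arrays, as were 3 of 7 fibroblast, 2 of 4 endothelial and 3 of 6 leukocyte marker genes, and 2 genes of each of the last 3 lists were so on no array. Of the 9 squamous markers, 7 were called higher (KRT6A by 6.94) and EPCAM lower (-0.51), with a median of 1.38 over the 9. Their summed level, in units of the 75th percentile, was 57.8 and 58.0 in the controls against 63.3 and 63.5 after knockdown. The largest part of this sum was EPCAM, with a mean of 5.52 in the controls and 5.01 after knockdown in log2. The sum therefore understates the rise of the 7 genes called higher. The summed fibroblast level was 0.144 and 0.148 against 0.331 and 0.346, with COL1A1, COL1A2 and PDGFRB called higher, LUM lower and DCN not called. The summed leukocyte level was 4.63 and 4.67 against 6.36 and 6.04. Most of it was CD14, at 2.05 and 2.03 against 2.62 and 2.54 in log2, which was called higher (0.54). The 3 other measured leukocyte markers were called lower, CD68 (-1.37), CD3E (-1.48) and PTPRC (-0.55), so the sum follows 1 gene called against the other 3. CD3E was well above background on 3 of the 4 arrays. Another PTPRC probe, well above background on all 4, overlapped between the groups, at -5.43 and -5.39 in the controls against -5.37 and -5.51. The endothelial level was 0.0888 and 0.0958 against 0.0671 and 0.0636, with both measured markers called lower. Of 19 genes with a probe whose presence depends on the genome of a line, a list made with their values known, 6 stood well above background after knockdown on both arrays but on neither control, and 0 the other way. Of these 6, 4 were at least 2-fold above the limit for the controls. Counted by probe rather than by gene, 391 and 282 of all 34127 probes showed these patterns. The cultures are called Ca9-22 as labelled, whether all 4 are the same line was not tested, and a difference of line between the groups cannot be told apart from the knockdown in any value below. The part of these differences in the results was not tested, and in bulk RNA fewer cells of a type and less RNA per cell cannot be told apart.

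KPNA4 mRNA was lower on both knockdown arrays, and of the 6 other importin alphas KPNA7 was called higher, KPNA2, KPNA5 and KPNA6 were called lower with scaling but not without it (where KPNA2 was above 0), and KPNA1 and KPNA3 were not called. KPNA4 had values of 4.02 and 4.03 in the controls and 2.36 and 2.05 after knockdown. Both knockdown values lay far below both controls. The difference was -1.82 (SE 0.12, adjusted p = 0.00183), which left 28.3% of the control signal (95% interval 22.6% to 35.6%), and it was -1.32 without scaling.

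KPNA3, the closest relative of KPNA4, had values of 2.73 and 2.43 in the controls and 2.48 and 2.56 after knockdown. The groups overlapped. The difference of -0.06 (SE 0.12, adjusted p = 0.700) had a 95% interval of -0.39 to 0.27, which bounds any higher KPNA3 signal at 121% of control on this scale, and the difference was 0.02 after quantile normalization and 0.44 without scaling (adjusted p = 0.0304 by limma).

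The 3 subtypes of the KPNA1 subfamily did not move together. KPNA6 had values of 4.04 and 4.07 in the controls against 3.40 and 3.34 after knockdown, with no overlap, and fell by 0.68 on the log2 scale (SE 0.06, adjusted p = 0.00312), to 62.2% of control. Its difference was -0.18 without scaling (adjusted p = 0.176 by limma), and its other probe gave -0.50 (adjusted p = 0.0136 by limma over all probes). KPNA5 had values of -2.59 and -2.85 against -3.27 and -3.24, again with both knockdown arrays below both controls. The KPNA5 difference was -0.54 (SE 0.11, adjusted p = 0.0210), or 69.0% of control, against -0.03 without scaling. It was 0.40 with plain normexp background correction, where no gene was called. With normexp without 12 spots in bright surroundings it was -0.485 (adjusted p = 0.00314 by limma). KPNA1, at -3.37 and -3.65 against -3.23 and -3.25, lay higher on both knockdown arrays but was not called. Its difference of 0.27 (SE 0.11, 95% interval -0.04 to 0.58, adjusted p = 0.114) became 0.77 without scaling (adjusted p = 0.00170).

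In the remaining subfamily, KPNA2 and KPNA7 were called in opposite directions. KPNA2, an abundant subtype of proliferating cells, had values of 6.79 and 6.80 in the controls and 6.53 and 6.45 after knockdown. It was lower by this scaling, with a difference of -0.30 (SE 0.06, adjusted p = 0.0216), but it was at 0.00 after quantile normalization and 0.20 without scaling, and the call was lost with any 1 of the 4 arrays left out. KPNA7, a subtype known from oocytes and early embryos, was dim, at -6.48 and -6.49 in the controls and -5.08 and -4.46 after knockdown. The lowest signals well above background lay between -7.77 and -7.34. KPNA7 rose by 1.72 (SE 0.23, adjusted p = 0.00772), a 3.29-fold difference with a 95% interval of 214% to 506% of control, and the knockdown arrays were further apart for KPNA7 (SD 0.44, n = 2) than for any other member in either group. A second KPNA7 probe was at background in both controls, at -7.60 and -7.38, and read -5.01 and -4.91 after knockdown. That makes it at least 5.33-fold higher (fitted difference 2.53). It passed the filter on dim probes only through the knockdown arrays, where it is high, so its call is no separate support for the first probe. With normexp background correction without 12 spots in bright surroundings, the KPNA7 difference was 0.30 (adjusted p = 0.0615 by limma).

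In the whole machinery, 3 of the 32 members were called higher (KPNA7, IPO9 and SNUPN), which is 9.38% against 20.3% of all genes tested. Called lower were 11 members, 34.4% against 29.5% of all genes, and 18 were not called. Both knockdown arrays lay above both controls for 8 members (25.0%, against 31.7% of all genes) and below them for 19 (59.4%, against 48.2%), and for 5 members the groups overlapped. Only KPNA4 and KPNA7 differed by at least 2-fold, 6.25% of the members against 8.90% of all genes, and 26 of the 32 members differed by less than 0.5. The median over the members was -0.12, near the -0.10 of all genes. Without scaling, 20 members were called higher and 1 lower, and the median was 0.38 against 0.40 for all genes. The share of all genes called was not counted without scaling, at an unadjusted p or with other settings of the fit. Counts of these kinds, here and below, are therefore no result about the members or the lists. Of the 14 called members, 7 had the same sign under all 4 scalings: KPNA4, KPNA5, KPNA6, RAN, KPNA7, IPO9 and SNUPN. With each array left out in turn, 5 kept their call every time, namely KPNA4, KPNA6, KPNA7, RAN and SNUPN, and none of the 14 changed sign. Each such fit leaves 1 culture in a group, which is assumed to vary like the 2 of the other group, so these counts are a weak check.

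**Figure D1:**
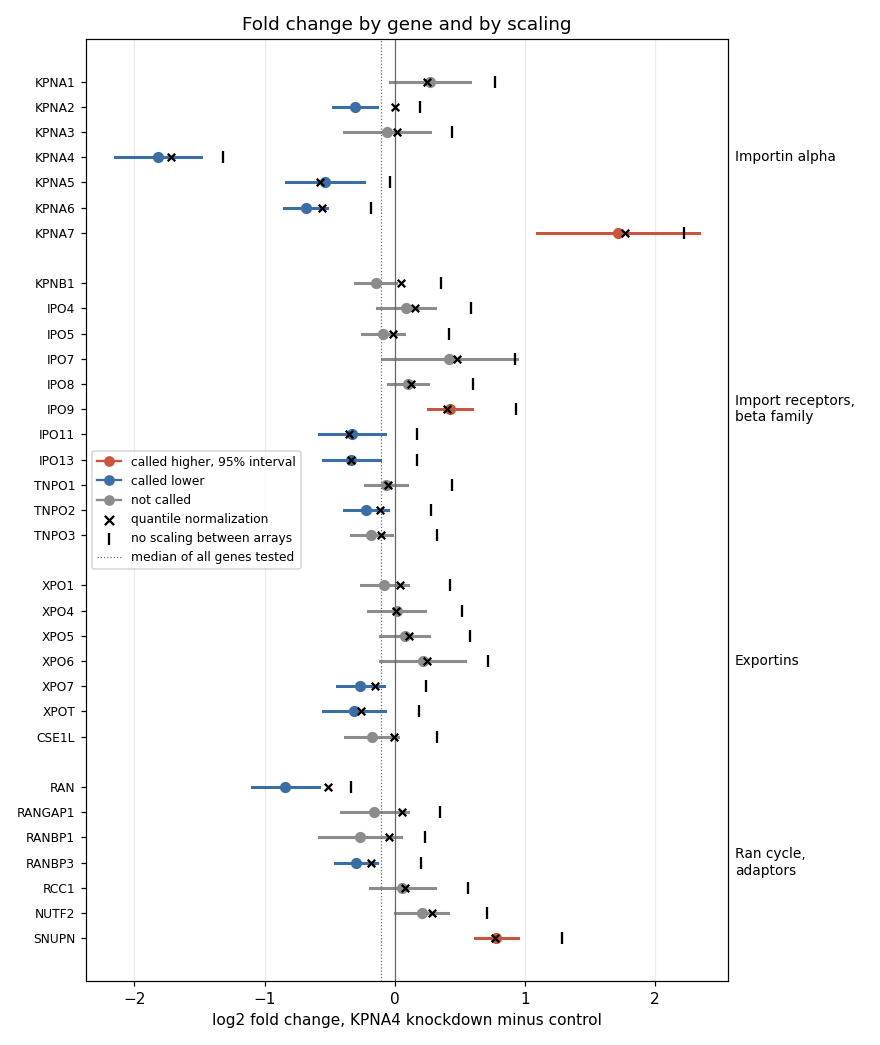
Log2 fold change of the 32 members, KPNA4 knockdown minus control (x axis), with 95% intervals from limma, by role (y axis). Circles are the values scaled to the 75th percentile, crosses those after quantile normalization, vertical ticks those without scaling, and the dotted line is the all-gene median of -0.10. Most members lie within 0.5 of 0, and the ticks stand to the right of the circles by 0.50.

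Importin beta itself, KPNB1, had values of 5.42 and 5.43 in the controls and 5.30 and 5.25 after knockdown. Both knockdown arrays lay below both controls, but the gene, represented by this probe, was not called. The difference was -0.15 (SE 0.06, 95% interval -0.31 to 0.01, adjusted p = 0.102), with 0.05 after quantile normalization. Without scaling the gene was called higher (0.36, adjusted p = 0.0215 by limma). A further KPNB1 probe had 5.56 and 5.61 against 5.15 and 4.97, a difference of -0.52 (SE 0.09, adjusted p = 0.0133 by limma over all probes). KPNB1 was called lower with the mean over its probes (-0.34, adjusted p = 0.0226 by limma) and with limma's trend and robust options (-0.15, adjusted p = 0.0381). Its call and its direction therefore depend on the scaling, and its call also on the probe and the variance model.

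Among the 11 import receptors of the beta family, 1 was called higher (9.09%, against 20.3% of all genes) and 3 lower (27.3%, against 29.5%), with a median of -0.09 (0.41 without scaling). Without scaling the counts were 8 higher and 0 lower. IPO9, an import receptor of core histones, had values of -2.57 and -2.62 in the controls against -2.14 and -2.20 after knockdown. It was higher on both arrays, by 0.43 (SE 0.06, adjusted p = 0.00957), and by 0.93 without scaling. The 3 receptors called lower, each between -0.33 and -0.22, were IPO11 (-0.33), which imports ubiquitin-conjugating enzymes, IPO13 (-0.33), which carries cargo both ways, and TNPO2 (-0.22), a close relative of TNPO1. Without scaling all 3 were above 0, at 0.17, 0.17 and 0.28. The other 7 ranged from -0.18 for TNPO3 (adjusted p = 0.0644), the import receptor of SR splicing factors, to 0.42 for IPO7 (95% interval -0.10 to 0.94, adjusted p = 0.133), which imports ribosomal proteins. Between these lay KPNB1, TNPO1 at -0.07, IPO5 at -0.09, IPO8 at 0.10 and IPO4 at 0.09, and without scaling all 7 lay above 0. IPO7 was called higher without scaling (0.92, adjusted p = 0.00136 by limma) and with normexp without bright surroundings (0.41, adjusted p = 0.0440 by limma). It was not called after quantile normalization (0.48, adjusted p = 0.105 by limma), and its other probe gave 0.05.

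Of the 7 exportins, limma called 0 higher (against 20.3% of all genes) and 2 lower (28.6%, against 29.5%), with a median of -0.08 (0.42 without scaling). At an unadjusted p under 0.05 the counts were also 0 and 2, and so were those with limma's trend and robust options. Without scaling they were 5 higher and 0 lower, and 0 were lower after quantile normalization, with normexp, without a filter on dim probes, with the replicate block and without any single array except control 2, where 1 was. The pair called lower were XPOT, the exportin of tRNA, at -0.31 (adjusted p = 0.0458), and XPO7 at -0.26 (adjusted p = 0.0337), and both were above 0 without scaling, at 0.19 and 0.24. XPO1, the receptor of leucine-rich export signals, had values of 3.11 and 3.05 against 2.96 and 3.04. Its difference was -0.08 (95% interval -0.26 to 0.10, adjusted p = 0.355), and 0.04 after quantile normalization and 0.42 without scaling. CSE1L, which returns importin alpha to the cytoplasm, had values of 5.01 and 4.87 against 4.75 and 4.78 and a difference of -0.18 (SE 0.07, 95% interval -0.38 to 0.03, adjusted p = 0.117), or 0.33 without scaling. XPO4, XPO5, which exports precursor miRNA, and XPO6, which exports actin, differed by 0.01, 0.08 and 0.21 and were not called.

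RAN was the member after KPNA4 with the largest called decrease. It was bright, at 7.42 and 7.50 in the controls against 6.52 and 6.72 after knockdown, with no overlap. RAN fell by 0.84 (SE 0.09, 95% interval -1.10 to -0.58, adjusted p = 0.00528), to 55.9% of control. The difference was -0.51 after quantile normalization (adjusted p = 0.0308) and -0.34 without scaling (adjusted p = 0.0503 by limma). A second RAN probe read 5.02 and 4.87 against 4.64 and 4.73, a difference of -0.26 (SE 0.08, adjusted p = 0.0617 by limma over all probes), so the size of the RAN difference rests on the brighter probe.

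The regulators that set the nucleotide state of RAN were not called. RCC1, its exchange factor in the nucleus, differed by 0.06, RANGAP1, the GTPase-activating protein at the cytoplasmic face, by -0.16, and RANBP1, which aids release of RAN-GTP from receptors, by -0.27 (adjusted p = 0.121), the last pair being above 0 without scaling, at 0.35 and 0.23. NUTF2, which imports RAN-GDP, had a difference of 0.21 (95% interval 0.01 to 0.41, adjusted p = 0.0800) and was not called. It was called higher in 4 of 15 alternatives, among them quantile normalization (0.29, adjusted p = 0.0375 by limma) and no scaling (0.71, adjusted p = 6.5e-04 by limma). RANBP3, a cofactor of XPO1, was called lower at -0.30 (adjusted p = 0.0203), and was 0.21 without scaling. SNUPN, or snurportin, the adaptor that links spliceosomal snRNPs to importin beta, had -1.92 and -1.98 in the controls and -1.18 and -1.16 after knockdown. It rose by 0.78 (SE 0.06, 95% interval 0.62 to 0.94, adjusted p = 0.00247), a 1.72-fold difference, with the groups well apart, and by 1.28 without scaling. Of the 7 genes, 1 was called higher (14.3%, against 20.3% of all genes) and 2 lower (28.6%, against 29.5%), with a median of -0.16. Without scaling 4 were higher and 0 lower, with a median of 0.35.

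**Figure D2:**
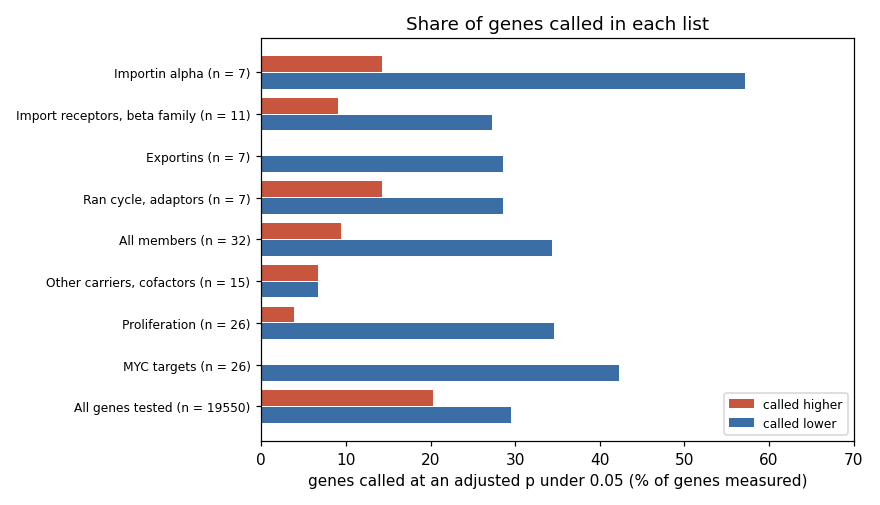
Percent of measured genes called higher and lower (x axis) by limma at an adjusted p under 0.05 for all members, each role, the lists outside the members and all genes tested (y axis). All genes stand at 20.3% higher and 29.5% lower, and the members at 9.38% and 34.4%.

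Counted by probe, 4 of the 43 member probes were called higher (9.30%, against 20.0% of all probes tested) and 15 lower (34.9%, against 28.3%). Of the 32 members, 22 had 1 probe, 9 had 2 and XPO5 had 3. For the 10 with several probes, the brightest was set against the next within each array, and this difference changed between the groups for 3 of 10, where 25.7% of all genes with several probes did so. The 3 were KPNB1 (0.38, SE 0.09, adjusted p = 0.0407), RAN (-0.58, SE 0.11, adjusted p = 0.0270) and XPO5 (0.52, SE 0.08, adjusted p = 0.0163), all by limma. The gap of KPNA7 was wider, at -0.81 (SE 0.21), but was not called (adjusted p = 0.0525 by limma). For XPO5 the brightest probe differed by 0.08, the next by -0.44 (adjusted p = 0.00875) and the dimmest by 0.10, so the probes of this gene did not give 1 answer. Both RANBP3 probes were called lower (-0.30 and -0.51), as were both KPNA6 probes. Both KPNA7 probes were called higher, but the second passed the filter only through the knockdown arrays.

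The promoters of RAN and KPNA6 are shown as those of the members with the largest called decreases beside KPNA4, each from 250 bases before to 50 after the start in RefSeq (GRCh38.p14, plus strand). RAN lies at chr12:130871816-130872115 and KPNA6 at chr1:32107806-32108105. The E-box CACGTG, a motif read by MYC, is in capitals.
RAN: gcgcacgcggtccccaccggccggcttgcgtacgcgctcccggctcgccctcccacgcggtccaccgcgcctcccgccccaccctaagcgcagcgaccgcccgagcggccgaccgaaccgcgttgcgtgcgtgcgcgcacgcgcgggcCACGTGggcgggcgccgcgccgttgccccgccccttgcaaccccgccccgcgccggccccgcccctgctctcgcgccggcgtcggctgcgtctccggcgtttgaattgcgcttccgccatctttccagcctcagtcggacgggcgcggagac
KPNA6: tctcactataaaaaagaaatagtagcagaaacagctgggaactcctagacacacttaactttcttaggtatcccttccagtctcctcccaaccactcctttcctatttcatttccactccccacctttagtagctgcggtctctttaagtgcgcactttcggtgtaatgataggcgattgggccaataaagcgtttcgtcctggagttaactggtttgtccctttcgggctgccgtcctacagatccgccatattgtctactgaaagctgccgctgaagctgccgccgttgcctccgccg
The promoters differ in composition, with 78.3% GC for RAN and 49.3% for KPNA6, where the median of all promoters in the table is 58.7%. Of the 35 promoters of the 26 members that matched the table, 7 (20.0%) hold CACGTG, those of IPO4, IPO7, KPNA3, RAN, RCC1, TNPO2 and XPO1, against 7.26% of all 35116 promoters. Of these genes RAN and TNPO2 were called lower, and IPO4, IPO7, KPNA3, RCC1 and XPO1 were not called. A link between the motif and the differences was not tested. The median GC of the member promoters is 64.3%. The ETS motif CCGGAAG, searched on both strands, is in 5 (14.3%, against 10.3%), and the CRE TGACGTCA in 0 (against 1.85%).

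Genes outside the members gave the surroundings of these values. Of 17 other carriers and cofactors, 15 were measured, and 1 was called higher (RANBP6, a relative of IPO5, 0.53, adjusted p = 0.00508) and 1 lower (HIKESHI, which imports HSP70, -0.62, adjusted p = 0.00614). Each is 6.67%, against 20.3% of all genes higher and 29.5% lower, and the median was -0.05. Of 26 proliferation genes, 1 was higher (CCNB2, 0.28), which is 3.85% against 20.3% of all genes. Called lower were 9 (34.6%, against 29.5% of all genes), including MKI67 (-0.60, adjusted p = 0.00557) and RRM2 (-0.58, adjusted p = 0.00548). The median was -0.12, and without scaling 15 were higher and 0 lower. A list of 26 genes, named MYC targets below, held MYC itself and genes reported as its targets. Of the 26, limma called 0 higher (against 20.3% of all genes) and 11 lower (42.3%, against 29.5%). The median of the list was -0.22 (0.28 without scaling). MYC, counted among the 11, differed by -0.34 (adjusted p = 0.0141 by limma), and by 0.16 without scaling. For the whole list, the looser settings gave the following counts. At an unadjusted p under 0.05, 0 were higher and 14 lower, and with limma's trend and robust options 0 and 16. The shares of all genes at these settings were not counted, so these counts are no result about the list. The largest called decreases were those of RRP9 (-0.54), HSPD1 (-0.51), NOP58 (-0.42) and ODC1 (-0.40). Without scaling these 4 genes were near 0, at -0.04, -0.0047, 0.08 and 0.10 in the same order.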

How the data were processed

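Total RNA of 4 Ca9-22 cultures (2 control, 2 KPNA4 knockdown, grouped by the sample labels) was hybridized to 1-color Agilent arrays. The authors deposited, array by array, scanner output made with Feature Extraction 11.0.1.1 (per the labels), in which the processed signal intensity is already background-subtracted, with flags per spot. They also deposited a table whose values were found to be this intensity divided by the 75th percentile of the array, a ratio, for 24209 probes.

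From the intensity, control spots and outlier-flagged spots (333 to 355 of 43118 per array) were left out, spots of a probe averaged in log2, and the 75th percentile subtracted. No spot was saturated, and 70.2% to 71.0% of probes per array were well above background. The small number of arrays limits the precision, and there is no read depth. Probes were kept if both arrays of a group, or of each, read them well above background, and the brightest probe stood for its gene. Names came from transcript accessions in a RefSeq table (25771 of 34127 probes matched). The array grid refers to another assembly, so no array coordinates are given. A probe at background throughout a group was given a lower limit on its fold: the brighter group's mean over the mean, per array of the dimmer group, of the higher of the lowest signal well above background and the probe's own.

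The test was that of limma 3.58.1 under R 4.3.3 (lmFit, eBayes, Benjamini-Hochberg, threshold 0.05), tested on simulated data. Same-numbered arrays did not deviate together (correlation -0.03 over 19538 genes), so no block was used. The alternatives were quantile, median and no scaling, normexp, the deposited table, 2 other filters on dim signals, probes of a gene averaged, trend and robust options, a replicate block, a threshold of 0.01 and each array left out. Added after seeing the data were normexp without bright surroundings and the difference between probes. Both normexp corrections added an offset of 50 to each signal. Members and lists were chosen with earlier results of these data known. Per-array values are given for KPNA4, the other importin alphas, KPNB1 and other called members differing by at least 0.5. IPO9, XPO1, CSE1L and second probes were added after their values were seen. At most 4 called genes of each outside list are named, besides CCNB2 as the single one called higher and MYC as the regulator of its list.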

Additional observations from a re-analysis of the deposited data

How the results depend on the processing

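Across the alternatives KPNA4 stayed between -1.97 and -1.32 and past the threshold except with plain normexp (-1.96, adjusted p = 0.651 by limma), where 12 of 44495 spots had a local background above 100 and no gene at all was called. At an unadjusted p under 0.05 normexp gave 1 member higher and 3 lower. The 2 arrays per group limit what can be called. The difference of KPNA7, a dim gene, stayed close to its main value with plain normexp, though without a call. It was far smaller with normexp without bright surroundings. Both normexp corrections also added an offset to each signal, so the part of background removal in this smaller value was not tested.

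Members called higher, 3 in all, were 20 without scaling, 0 with normexp and 2 to 4 with single arrays left out. Members called lower, 11 in all, were 6 after quantile normalization, 1 without scaling, 0 with normexp, 4 without a filter on dim probes, 3 at a threshold of 0.01 and 3 to 7 with single arrays left out, lowest without either knockdown array. All 9 called members outside KPNA4, KPNA6, KPNA7, RAN and SNUPN lost the call without knockdown 1 (adjusted p 0.0652 to 0.202) and also without knockdown 2 (0.0542 to 0.191). Without control 1 the call was lost for KPNA2, IPO11, TNPO2, XPO7 and XPOT (0.0563 to 0.106), and without control 2 for KPNA2, IPO13, TNPO2, XPO7 and RANBP3 (0.0527 to 0.0872). The replicate numbers do not pair the samples, and with the replicate number as a block 3 members were higher and 5 lower, 0 proliferation genes higher and 6 MYC targets lower. The cause of these moves was not tested.

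The median of the members, -0.12, was 0.00566 after quantile normalization, 0.38 without scaling, -0.26 with normexp, -0.0837 with the mean over probes and -0.158 to -0.0870 with single arrays left out. The importin alpha median was 0.00374 after quantile normalization and 0.20 without scaling. Without scaling the medians were 0.41 for the beta family, 0.42 for exportins and 0.35 for the Ran cycle, and with normexp -0.29 for exportins and -0.41 for the Ran cycle, which was 0.0574 after quantile normalization and -0.238 to -0.0758 with single arrays left out. Other carriers had 10 higher and 0 lower without scaling (median 0.45), 0 and 0 with normexp (median -0.25), 2 and 2 with the mean over probes, and the lower count was 2 with median scaling, 5 with normexp without bright surroundings, 3 when all 4 arrays had to be above background, 6 with trend and robust options and 1 to 5 with single arrays left out. Proliferation genes higher, 1 in all, were 5 after quantile normalization, 15 without scaling, 0 with normexp, 4 with normexp without bright surroundings, 0 without a filter, 4 with trend and robust options and 0 with any array left out. Those lower were 0 without scaling, 0 with normexp and 3 to 7 with single arrays left out. Their median was -0.0238 (quantile), -0.14 (median scaling), 0.38 (no scaling), -0.36 (normexp), -0.0865 (mean over probes) and -0.135 to -0.0662 with single arrays left out. MYC targets higher were 11 without scaling. Those lower were 5 after quantile normalization, 0 without scaling, 0 with normexp, 6 without a filter and 1 to 8 with single arrays left out. Their median was -0.0214 (quantile), -0.25 (median scaling), 0.28 (no scaling), -0.33 (normexp), -0.20 (normexp without bright surroundings), -0.19 (mean over probes) and -0.23 to -0.19 with single arrays left out.

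Signs turned without scaling for KPNA2 (0.20), KPNA3 (0.44), KPNB1 (0.36), IPO5 (0.41), IPO11 (0.17), IPO13 (0.17), TNPO1 (0.44), TNPO2 (0.28), TNPO3 (0.32), XPO1 (0.42), XPO7 (0.24), XPOT (0.19), CSE1L (0.33), RANGAP1 (0.35), RANBP1 (0.23) and RANBP3 (0.21). They turned after quantile normalization for KPNA2 (0.00374), KPNA3 (0.0156), KPNB1 (0.0513), XPO1 (0.0390) and RANGAP1 (0.0574), and with normexp for KPNA5 (0.40), IPO4 (-0.17), IPO8 (-0.0400), IPO11 (0.12), XPO5 (-0.0601) and RCC1 (-0.0491). XPO4 was -0.00899 with median scaling and -0.0381 with normexp without bright surroundings, and XPO5 was -0.0878 with the mean over probes. With single arrays left out KPNA3 ranged from -0.208 to 0.0867, RCC1 from -0.0449 to 0.16 and XPO4 from -0.0468 to 0.0749.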

Other observations

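KPNA4 lies among genes that were read on the same arrays, and these neighbors were looked at after their values were seen. Of the 10 measured neighbors, 5 were called lower by limma: IL12A (-0.84), C3orf80 (-2.15), TRIM59 (-0.85), SCARNA7 (-0.57) and B3GALNT1 (-0.66). The remaining 5 were not called: IFT80 (-0.05), SMC4 (-0.31), ARL14 (0.54), NMD3 (-0.42) and SPTSSB (-0.89). Among all genes tested, 29.5% were called lower.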
